A study of Mus musculus with 2 samples.

Results

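Cluster 3 of the embryonic day 13.5 (E13.5) mouse mandible, called C3 here, was taken as the cells that the authors' deposited cell table assigns to it. It held 472 of the 6318 cells of the E13.5 library, and of 13417 cells in both libraries of the series. The authors' lineage name for C3 was mesenchyme. It was compared with 9 clusters, C0, C2, C4, C5, C6, C10, C11, C12 and C14, which held 3361 cells; all carried the same name except C5, named osteogenic progenitors. C3 was 12.3% of the cells of these 10 clusters (95% exact binomial interval 11.3 to 13.4) and 7.47% of all E13.5 cells (6.83 to 8.15). A small further cluster with the mesenchyme name, C21, held 72 shallow cells and was kept out of the reference.

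The study profiled single cells of dissected mandibular tissue from wild-type embryos of the outbred CD1 strain at E11.5 and E13.5. Tissue was digested in the cold with a Bacillus licheniformis protease, at 3 mg/ml for E11.5 and 5 mg/ml for E13.5, and loaded on a 10x Chromium instrument. There was 1 library per stage. No genotype or treatment separated the samples, both stages were wild type, and the labels say nothing of the number, sex or litter of the embryos. The E13.5 tissue included the developing tongue and skeletal elements, per the labels.

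Mandibular mesenchyme comes mostly from cranial neural crest cells that settle in the first pharyngeal arch. Its cells take on positional identities through transcription factors such as the DLX, HAND, ALX, MSX and BARX families, under signals from the overlying epithelium that include hedgehog, FGF, BMP, WNT and endothelin ligands. They then form cartilage, bone, tendon, tooth mesenchyme and the connective tissue of the jaw and tongue. BARX1 is a homeodomain protein known for its place in the proximal, molar-forming oral mesenchyme, where it is opposed by the MSX1 domain, and for roles in joint and connective tissue.

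Promoter sequences of 3 leading transcription and growth factor genes of C3 are shown to place the results on the genome. Each is the 250 bases before an annotated start site in RefSeq's GRCm38.p6 build, written 5′ to 3′ on the gene's strand. GENCODE, the source of the gene positions given later, starts Barx1 inside its RefSeq window. Barx1 has the highest ratio among the leading genes, and capitals in the Figf and Foxp1 windows mark the letters TGACAG or their reverse complement, the core recognised by MEIS proteins, and TAATTA, a core of many homeodomain proteins.
Barx1, chr13:48662786-48663035, plus strand: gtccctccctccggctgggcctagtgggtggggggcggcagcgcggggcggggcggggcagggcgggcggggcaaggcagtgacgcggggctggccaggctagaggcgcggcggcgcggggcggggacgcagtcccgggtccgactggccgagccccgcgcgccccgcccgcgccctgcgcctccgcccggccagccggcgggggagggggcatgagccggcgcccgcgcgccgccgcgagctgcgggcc
Figf, chrX:164373272-164373521, plus strand: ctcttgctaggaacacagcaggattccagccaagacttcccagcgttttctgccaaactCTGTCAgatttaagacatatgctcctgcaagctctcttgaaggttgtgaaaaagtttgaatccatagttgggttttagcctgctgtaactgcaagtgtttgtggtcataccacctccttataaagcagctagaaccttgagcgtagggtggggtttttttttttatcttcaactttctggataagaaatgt
Foxp1, second of 3 start sites, chr6:99266516-99266765, minus strand: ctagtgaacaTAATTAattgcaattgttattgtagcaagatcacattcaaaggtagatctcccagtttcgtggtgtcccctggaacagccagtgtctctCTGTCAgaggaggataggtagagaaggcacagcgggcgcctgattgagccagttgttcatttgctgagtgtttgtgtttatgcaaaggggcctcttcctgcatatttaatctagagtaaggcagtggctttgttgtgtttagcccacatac
GC bases made up 85.6% of the Barx1 window, against a median of 52.4% over 32851 windows of the same length. TGACAG, searched on both strands, was present for 2 of the 17 leading genes with a RefSeq window (Figf and Foxp1), counting any window of a gene, and for 17.95% of all genes. TAATTA was present for 2 of the 17 (Asb4 and Foxp1) and for 5.65% of all genes. The forkhead letters TGTTTAC (3.54% of all genes) and the GLI letters GACCACCCA (0.255%) were in none of the 17.

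The E13.5 library held 67838169 UMIs (unique molecular identifiers, which count captured RNA molecules), with a median of 9280 per cell. C3 held 3755107 UMIs, with a median of 7815 per cell, eighth of the 10 mesenchymal clusters, whose medians ran from 6419 in C12 to 10943 in C4. The median mitochondrial share of its cells was 3.04%, and the other clusters lay between 2.84% and 3.19%. A Xist UMI was found in 29.4% of C3 cells and a Y-linked UMI without Xist in 25%, so C3 held cells of both sexes. Of 71 cell barcodes that the libraries shared, 3 were in C3.

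Summed UMIs per cluster were scaled to a total of 1000000 (counts per that total, CPM), and C3 was set against the 9 other clusters pooled. A gene was called higher or lower when the ratio passed 1.5-fold and its 95% exact interval excluded 1. With 1 library and clusters made from these same genes, the ratios describe C3 and carry no test, and the intervals cover counting error only. Of 13414 genes with at least 20 UMIs, 874 (6.52%) were higher in C3 and 1034 (7.71%) were lower. The median log2 ratio of the measured genes was 0.01. Of the 874, 514 had their highest level of the 10 clusters in C3, and 127 stood at least 1.5-fold above the next cluster.

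C3 carried the general markers of mesenchyme. Pdgfra, a receptor of platelet-derived growth factors found on most embryonic mesenchyme, was at 219.7 CPM in C3 and 118 CPM in the others, and at most 6.69 CPM in any non-mesenchymal class of the library. Prrx1, a homeobox gene of limb and craniofacial mesenchyme, was at 319 CPM against 302 CPM, and at most 22.1 CPM outside the mesenchyme. Of the 10 markers, Pdgfra, Meox1 and Fn1 were higher in C3 and Col1a1 was lower, but Meox1 turned lower, at a ratio of 0.416, when only cells with a Xist UMI were used on both sides. Vim and Meox1 were higher in endothelial cells than in C3. The bone matrix and fibrillar collagen gene Col1a1 was lowest in C3 of the 10 clusters, at 435 CPM against 678 CPM.

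The 20 genes with the highest ratios, among those with at least 50 CPM in C3, were led by transcription factors. Barx1 (chr13:48662998-48666507, plus strand) was at 259.9 CPM in C3, against 119.5 CPM in C4, 49.4 CPM in C6, 45.0 CPM in C14, 30.1 CPM in C11 and 23.8 CPM in C5. In C0, C2, C10 and C12 it was between 1.68 and 8.03 CPM. C3 therefore stood above each of the 9 clusters, 2.17-fold over the next, and 7.32-fold over all of them pooled (6.71 to 7.99, 976 UMIs in C3). Foxp2, a forkhead repressor best known from neural circuits of speech and movement, was at 70.3 CPM against 9.96 CPM, a ratio of 7.06 (5.96 to 8.35), with C14 next at 28.5 CPM. Its relative Foxp1 was at 104 CPM in C3 and between 8.93 and 58.5 CPM in the other clusters, a ratio of 3.33.

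Meis2, a TALE homeodomain gene that works as a cofactor of HOX and other factors in the cranial neural crest, was at 220.0 CPM in C3, with C11 next at 161 CPM, C4 at 124 CPM and the remaining clusters between 19.5 and 80.8 CPM. Its ratio over the pooled clusters was 3.54. The other transcription factors of the 20, Creb5 and Jun, were higher in C14 than in C3. Creb5, a CREB-family factor, was at 114 CPM in C3 and 149 CPM in C14. Jun, an immediate-early gene and subunit of AP-1, was at 171 CPM in C3 and 194 CPM in C14, and at most 78.3 CPM elsewhere.

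Secreted proteins and their receptors formed the next group. Figf, now named Vegfd, a ligand of lymphatic and vascular VEGF receptors, was at 73.5 CPM in C3 and 57.3 CPM in C12, with C4 at 32.2 CPM and the remaining 7 clusters between 4.01 and 9.12 CPM. Slit2, a repulsive guidance ligand of ROBO receptors, was at 212 CPM, with C4 next at 86.3 CPM and C0 lowest at 17 CPM. Nrp2, a coreceptor for class 3 semaphorins and for VEGF-C and VEGF-D, was at 168 CPM, with C5 next at 99.2 CPM and C11 lowest at 5.09 CPM. Flrt2, an adhesion protein that binds UNC5 receptors and FGF receptors, was at 121 CPM with C4 next at 46.6 CPM, the widest lead over the next cluster among genes at or above 50 CPM (2.61-fold). Rarres2, the precursor of the chemoattractant chemerin, was at 72.7 CPM in C3 and 81.4 CPM in C14, and at most 26.4 CPM elsewhere.

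The remaining leading genes encode proteins of varied function. Itm2a, a membrane protein of developing cartilage and muscle, had 9967 UMIs in C3, or 2654 CPM, with C6 next at 1427 CPM, C4 at 1358 CPM and C2 lowest at 162 CPM. Nefl, the light neurofilament subunit, was at 114 CPM with C14 next at 52.9 CPM. Slc1a3, a glutamate and aspartate transporter, was at 202 CPM with C0 next at 98.6 CPM, and Tes, a LIM protein of focal adhesions, was at 115 CPM with C14 next at 54.1 CPM. Capn6, a calpain without protease activity, was at 426 CPM in C3 and 339 CPM in the osteogenic progenitor cluster C5. Rgs2, a regulator of G protein signalling, had a ratio of 3.01, and AW551984, a gene of poorly known function, one of 2.72. Asb4, a subunit of ubiquitin ligases, was highest in C6 (189.9 against 131 CPM in C3), and Sdpr, a caveolar coat protein now named Cavin2, was highest in C14 (83.1 against 71.4 CPM).

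Of the 20 leading genes, 15 were highest in C3. The highest other cluster was C14 for 8, C4 for 4 and C6 for 3, and it stood above C3 for the other 5, namely C14 for Creb5, Jun, Rarres2 and Sdpr and C6 for Asb4. The plot of levels by cluster shows each of these genes with all 10 values.

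**Figure D1:**
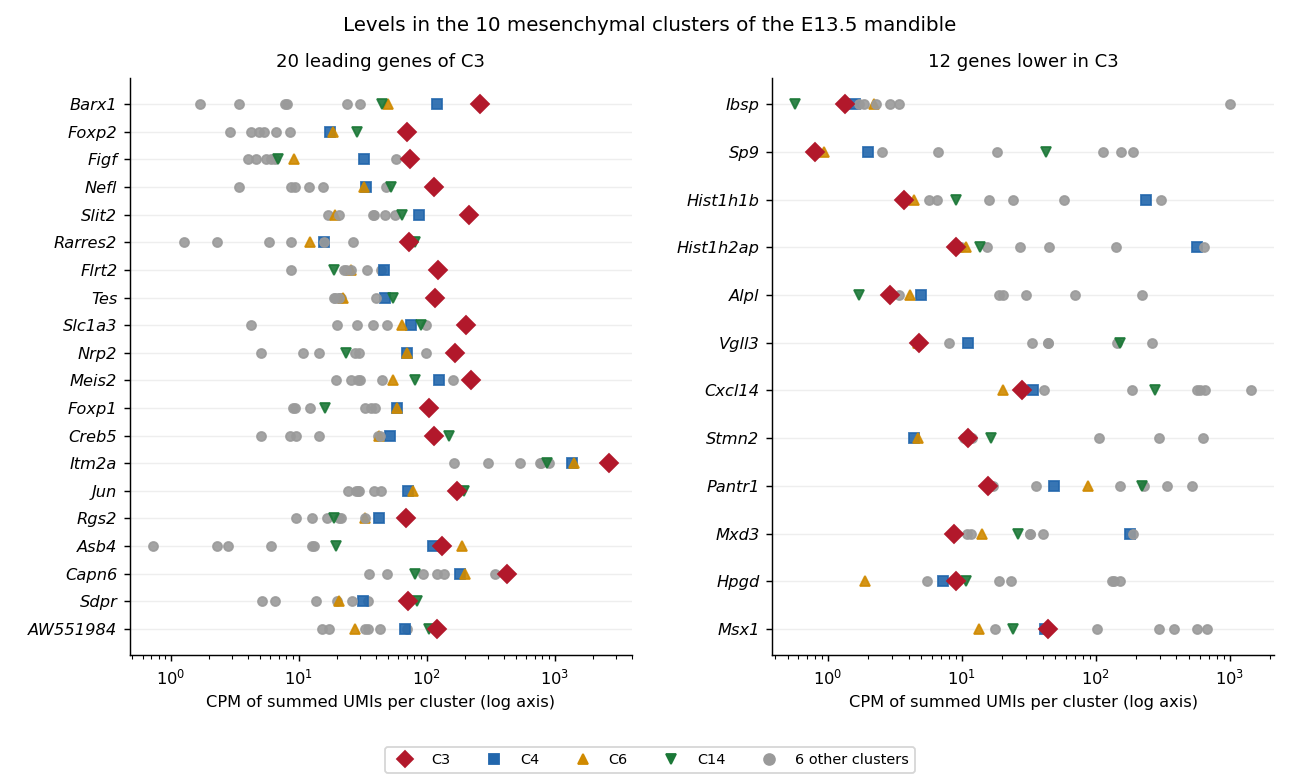
CPM of summed UMIs (log axis) in each of the 10 mesenchymal clusters for the 20 leading genes of C3 (left) and the 12 genes lowest against the others (right); diamonds are C3, and C4, C6 and C14 have their own marks. C3 lies to the right of all other clusters for 15 of the 20, and to the left of all of them for 5 of the 12.

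The 12 genes with the lowest ratios included bone genes, with Ibsp, a bone matrix sialoprotein, at 1.33 CPM in C3 against 997 CPM in C5 and at most 3.37 CPM in every other cluster, and Alpl, the alkaline phosphatase of mineralising cells, at 2.93 CPM against 223 CPM in C5. For Ibsp the pooled ratio of 0.00894 thus reflects a single cluster of the reference. Histone genes and the cell cycle gene Mxd3 were lowest in C3. Hist1h1b was at 3.73 CPM in C3, with C6 at 4.40 CPM, C0 at 6.49 CPM, and the S or G2M clusters C4 and C10 at 237 and 309 CPM.

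Sp9, a zinc finger gene of outgrowth and ectodermal ridge signalling, was at 0.799 CPM in C3 (3 UMIs) and 0.943 CPM in C6, against 191 CPM in C2, 155 CPM in C12 and 112 CPM in C10. Cxcl14, a chemokine, was at 28.0 CPM against 20.1 CPM in C6 and 1444 CPM in C12. Msx1, a homeobox gene of distal and odontogenic mesenchyme, was at 43.9 CPM in C3, close to 41.8 CPM in C4, and above 13.5 CPM in C6, 17.8 CPM in C11 and 23.9 CPM in C14; in C0, C5, C12 and C10 it was at 671, 568, 382 and 295 CPM. The mesenchymal clusters thus split into 5 with under 50 CPM of Msx1, C3 among them, and 5 with at least 102 CPM. Vgll3, Stmn2, Pantr1 and Hpgd completed the 12 lower genes, with ratios between 0.0639 and 0.146.

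Each list of regional jaw genes had both higher and lower members in C3, where 6.52% and 7.71% of all genes measured were. Of 20 distal patterning genes measured, 5 were higher and 6 lower (median log2 ratio -0.04). The higher members were the homeobox genes Alx1 (248 against 115 CPM, 2.14-fold) and Alx4 (50.3 against 22.6 CPM, 2.23-fold), which act in frontonasal and distal jaw mesenchyme, with Hand1, Pitx1 and Gata3. Alx1 was highest in C3 of the 10 clusters, with C5 at 203 CPM and C0 at 191 CPM, and as low as 4.59 CPM in C12 and 11.4 CPM in C14. Hand2, the main distal determinant downstream of endothelin signalling, was at 155 CPM, second to C11 at 183 CPM, and did not pass 1.5-fold (1.29). The lower members were Msx1, the antagonist gene Dkk1 (1.60 against 30.2 CPM), Dlx3, Dlx5, Mef2c and Edn1. Dlx5 was at 17 CPM in C3, and C5 alone held 171 CPM.

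Among 11 proximal jaw and DLX genes, Meis2, Eya1 and Dlx2 were higher and Emx2, Pou3f3, Irx3 and Irx5 lower (median -0.41). Emx2, a homeobox gene, was at 2.93 CPM against 42.6 CPM, and Pou3f3, a POU factor of the maxillary and proximal arch, at 3.46 CPM against 27.2 CPM. Of 16 oral and dental genes, Barx1 and Pax9 were higher and Msx1, Runx2, Tfap2b, Osr2 and Tbx3 lower (median -0.36). Pax9, a paired-box gene needed for tooth mesenchyme and palate, was at 29.8 CPM, with C5 above it at 53.5 CPM. Lhx8 and Lhx6, LIM homeobox genes of oral mesenchyme, were not called, at 103 CPM against 108 CPM and 10.9 CPM against 13.4 CPM. Of 11 tongue mesenchyme genes, Tbx22, Lgr5 and Cited1 were higher and Tbx18, Shox2 and Foxf2 lower (median -0.35).

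Tbx22, a T-box repressor whose loss causes cleft palate with a tight lingual frenulum, had a higher ratio than any of the 20 leading genes, at a level below their minimum. It was at 26.6 CPM in C3, 10.6 CPM in C4 and at most 2.01 CPM in each of the other 8 clusters, with 0 UMIs in C2 and C14, a ratio of 10.8 (7.92 to 14.8). Osr1, a zinc finger gene of tongue and intermediate mesenchyme, was at 427 CPM against 546 CPM and was not called.

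Genes of the skeletal lineages were low in C3. Of 15 chondrogenesis genes, 10 were lower and only Col9a1 was higher (median -2.03), and of 13 osteogenesis genes 8 were lower and none higher (median -1.32). Sox9, the master gene of cartilage, was at 12.8 CPM in C3 against 62.9 CPM in C6, and Col2a1, the cartilage collagen, at 12.2 CPM against 236 CPM in C5. Runx2, the master gene of bone, was at 3.99 CPM against 89.4 CPM in C5. The osteogenic cluster held the highest level of most of these genes, and with C5 left out of the reference the medians were -0.49 for chondrogenesis and -0.43 for osteogenesis, and Runx2 had a ratio of 1.48. Col9a1, a fibril-associated collagen, was at 63.1 CPM in C3, second to C5 at 94.5 CPM.

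Tendon and connective tissue lists were mixed. Of 8 tendon genes, Scx and Tnc were higher and Tnmd, Thbs4 and Kera lower; Scx, the tendon progenitor factor, was at 11.2 CPM in C3 and 24.8 CPM in C6. Of 24 dermal and loose connective genes, 5 were higher and 7 lower. Eln, which encodes elastin, was at 233 CPM against 96.3 CPM and highest in C3, as was Igf1 (280.2 against 124 CPM) and the EBF-family gene Ebf3 (45.0 against 15.3 CPM), whereas Ebf1 was at 134 CPM against 453 CPM. Of 9 pericyte and smooth muscle genes only Cspg4 passed, and was lower. In the matrix list of 21 genes, 4 were higher and 6 lower; Ptn, a heparin-binding growth factor of matrix, was at 1246 CPM in C3 and 1208 CPM in C5, and Vcan, a large proteoglycan, at 91.1 CPM against 218 CPM.

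In the hedgehog list of 13 genes, the coreceptors Boc (32.2 against 19.8 CPM) and Cdon (40.7 against 20 CPM) and the transcription factor Gli3 (40.5 against 24.7 CPM, 1.64-fold) were higher. The target and receptor gene Ptch1 was lower (11.7 against 28.4 CPM), as was Foxf2 (22.6 against 54.1 CPM). Gli2 was at 14.1 CPM against 14.2 CPM. Gli1, a direct target, was at 8.26 CPM against 11.9 CPM, a ratio of 0.692 (0.463 to 0.999), short of 1.5-fold.

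The WNT list of 26 genes held 6 higher and 11 lower members (median -0.49). Higher members included the ligands Wnt2 (32.2 against 9.41 CPM) and Wnt11 (22.4 against 7.79 CPM), the R-spondin Rspo2 and its receptor Lgr5 (35.7 against 8.85 CPM, highest in C3), and the secreted antagonist Sfrp1 (228 against 88.5 CPM). Lower members included the nuclear effectors Lef1 (10.4 against 58.5 CPM) and Tcf7, the feedback gene Nkd1 and the target Sp5, the R-spondins Rspo1 and Rspo3, and the antagonists Dkk1, Wif1, Frzb, Sfrp4 and Notum. Axin2, another feedback target, was not called at 14.9 CPM against 21.3 CPM. Wnt2 and Rspo2 were higher still in another cluster, at 60.9 CPM in C14 and 32.7 CPM in C12.

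In the FGF list of 16 genes, 5 were higher and 2 lower (median 0.31). The ligands Fgf18 (20.2 against 6.91 CPM) and Fgf7 (23.4 against 10.0 CPM) were higher, with C12 and C14 above C3 for the one and the other. Targets of FGF signalling were higher too, namely Etv1 (25 against 8.02 CPM), Dusp6 (59.1 against 23.1 CPM) and Etv4 (45.8 against 26.4 CPM), while Spry1, Spry2, Spry4 and Etv5 did not pass. The receptors Fgfr2 and Fgfr3 were lower, and Fgfr1, the main mesenchymal receptor, was at 131 CPM against 139.7 CPM.

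The BMP list of 23 genes had 3 higher (Bmp2, Grem1, Gdf5) and 5 lower members (among them Bmp3, Gdf10 and Id4). Bmp4, a ligand of distal and dental mesenchyme, was at 129 CPM against 100.1 CPM and was not called. Gdf5, a marker of joint-forming cells, was at 6.12 CPM in C3 (23 UMIs) against 0.888 CPM, with C5 next at 3.34 CPM. Of 15 TGF-beta and PDGF genes, Tgfb3, Pdgfd and Pdgfra were higher and Tgfb1 was lower (median 0.37).

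Retinoic acid genes had higher and lower members in equal number among 12 measured (median 0.39). Stra6, the membrane importer of retinol, was at 12.2 CPM in C3 (46 UMIs) and at most 4.80 CPM in any other cluster. Rarb, a retinoic acid receptor and classical target, was at 32.5 CPM with C0 next at 18.6 CPM, and Aldh1a2, a synthesising enzyme, was at 30.9 CPM with C6 next at 27.0 CPM. The enzyme Aldh1a3 was at 3.73 CPM against 159 CPM in C6, and the degrading enzyme Cyp26b1 at 7.72 CPM against 18.6 CPM. Of 10 Notch genes none was higher and 5 were lower (Notch1, Jag1, Hey1, Hey2, Lfng; median -0.94).

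In the guidance and chemokine list of 25 genes, Slit2, Nrp2 and Epha7 were higher and each was highest in C3, while 8 were lower (median -0.52). Slit2 differed in this from its relative Slit3, which was lowest in C3 at 7.19 CPM against 22.0 CPM, and the receptor Robo2 was also lowest in C3 (15.4 against 45.8 CPM). Epha7, an ephrin receptor, was at 92.9 CPM with C4 next at 82.1 CPM. Nrp1 and Cxcl12 did not pass, at 246 against 210.1 CPM and 251 against 216 CPM.

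Imprinted growth genes had the highest median of the lists. Of 13 measured, 7 were higher and none lower (median 0.59), namely Cdkn1c, Plagl1, Dlk1, Zim1, Peg3, Ndn and Meg3. Cdkn1c, a cyclin-dependent kinase inhibitor, was at 8725 CPM in C3 and 8407 CPM in C6, against 6835 CPM in C4, 5131 CPM in C14 and between 1045 and 3355 CPM in the other 6 clusters. Plagl1, a zinc finger regulator of the imprinted network, was at 368 CPM with C14 next at 327 CPM. Dlk1, Meg3, Peg3, Zim1 and Ndn were each higher in C14, C6 or C11 than in C3. Ccnd1, the G1 cyclin D1, was at 280 CPM against 123 CPM and highest in C3.

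**Figure D2:**
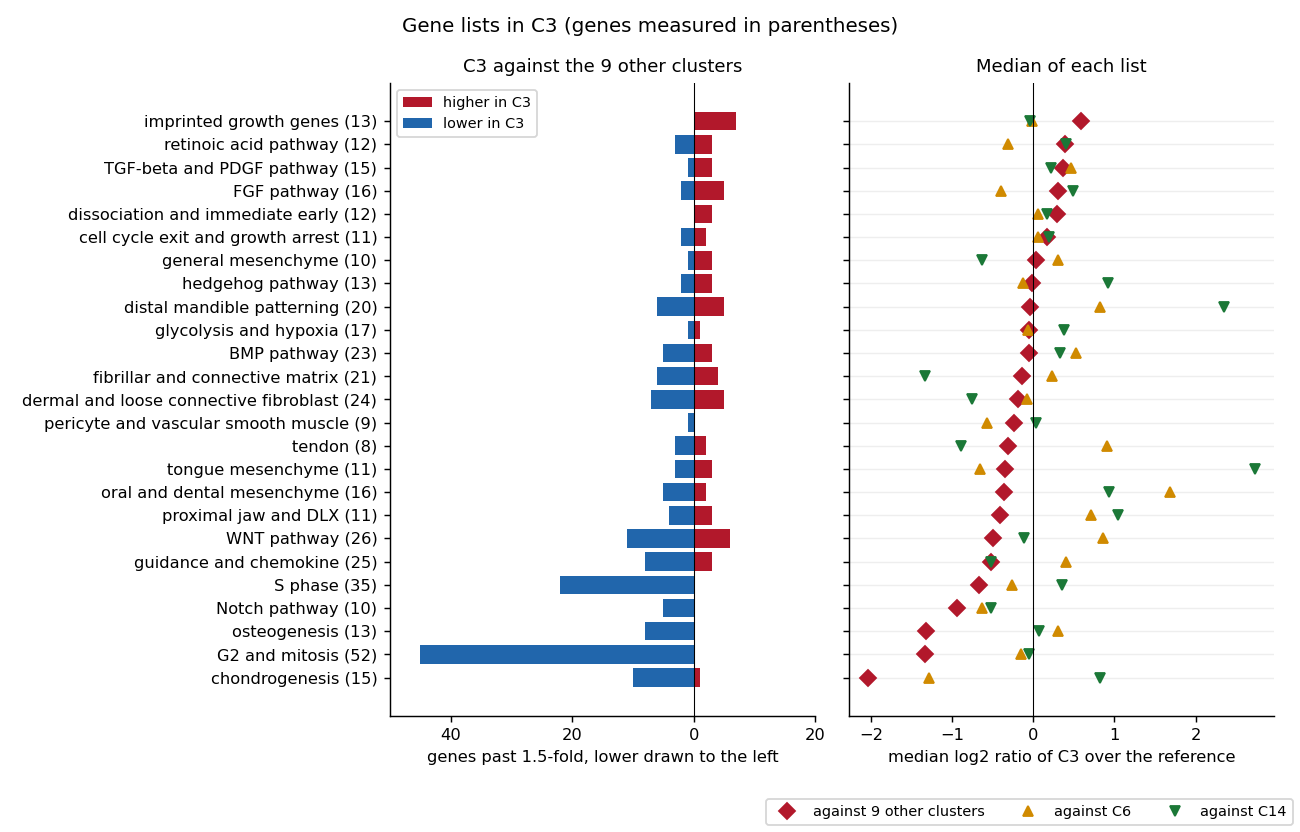
Left, genes of each list called higher (to the right) or lower (to the left) in C3 against the 9 other clusters; right, the median log2 ratio of each list against the 9 clusters, C6 alone and C14 alone. Chondrogenesis, G2 and mitosis, osteogenesis, Notch and S phase lists lie lowest against the 9 clusters, at medians from -2.03 to -0.67, and the imprinted list highest at 0.59.

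Genes of division were lower as a group. Of 52 G2 and mitosis genes 45 were lower and none higher (median -1.33), and of 35 S phase genes 22 were lower and none higher (median -0.67). By the authors' phase calls 71.4% of C3 cells were in G1 (67.1 to 75.4), 18.2% in S and 10.4% in G2M, and the other clusters ran from 0% G1 in C4 and C10 to 86.0% in C12. With both C4 and C10 left out of the reference the S phase median was -0.01, and with only G1 cells on each side it was 0.15 for S phase and 0.091 for G2 and mitosis. Of 11 genes of cell cycle exit and growth arrest, 2 were higher (Cdkn1c and Ccnd1) and 2 lower (median 0.17). The lower members were the cyclin-dependent kinase inhibitor genes Cdkn1a and Cdkn2c, at 2.66 against 16.0 CPM and 8.26 against 42.4 CPM.

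Leading genes were found in C3 cells of each phase call. Between the 337 G1 cells and the 135 S or G2M cells of C3, 6 of the 20 were higher in G1 with the interval excluding 1, by 1.15-fold (Itm2a) to 1.64-fold (Foxp1), Barx1 was lower in G1 (245 against 291 CPM, 0.843) and 13 had an interval that held 1. The 135 cells were also set beside C4, whose 442 cells were all called S or G2M and which was next highest for Barx1, Slit2, Flrt2 and Rgs2. These groups share phase calls but not levels of cell cycle genes, which were lower in the 135 C3 cells: Top2a was at 120.2 CPM against 740 CPM in C4, Rrm2 at 78.3 against 524 CPM, and the histone gene Hist1h2ap at 12.1 against 566 CPM. The comparison is therefore not matched for cycling. In the 135 cells 17 of the 20 leading genes stood at least 1.5-fold above C4, with a median ratio of 2.20. Barx1 was at 291 CPM in the C3 cells called S or G2M and 119.5 CPM in C4 (2.43-fold), and Foxp2 at 68.6 CPM and 17.6 CPM (3.90-fold). Asb4, Foxp1 and Rgs2 were the 3 that fell short of 1.5-fold. The 20 genes were chosen as high in C3 against a pool that includes C4, so a high count follows in part from that choice. Shares over all genes were not counted for this comparison or for G1 against S or G2M cells of C3.

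**Figure D3:**
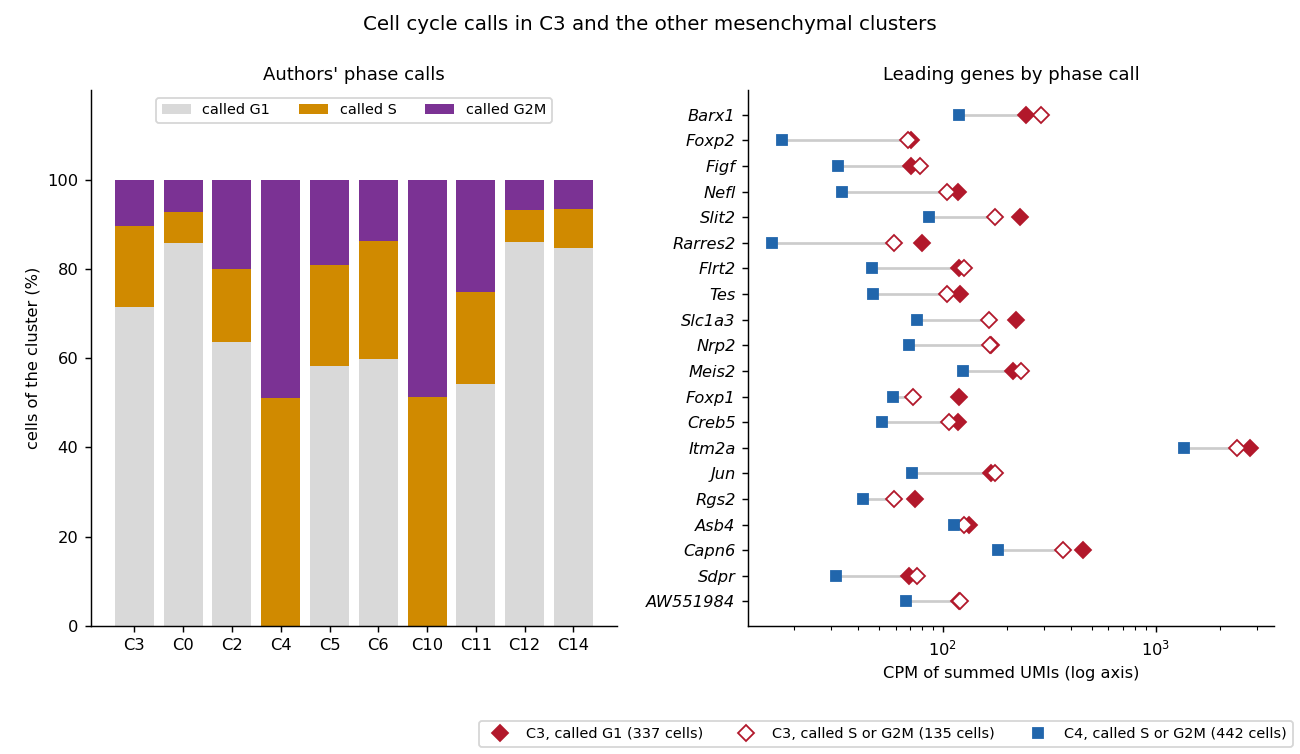
Left, the share of cells of each mesenchymal cluster that the authors called G1, S or G2M; right, CPM (log axis) of the 20 leading genes in G1 cells of C3, in S or G2M cells of C3, and in C4. C4 and C10 hold no G1 cells, and the C3 cells called S or G2M lie to the right of C4 for all 20 genes, though the 2 groups differ in levels of cell cycle genes. The 20 genes were chosen as high in C3 against a pool that includes C4.

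Immediate-early genes, which tissue dissociation can induce, and RNA of other cell types were measured beside these values. Of 12 immediate-early genes 3 were higher (Jun, Jund, Egr1) and none lower (median 0.29); Fos was at 0.266 CPM and Junb at 2.13 CPM in C3, and the heat shock gene Hspa1a at 3.20 CPM. The summed level of 10 skeletal muscle markers was 130.2 CPM in C3, above the 96.3 to 116 CPM of the other clusters and far below the 9086 CPM of the tongue muscle class. The 9 endothelial markers summed to 34.6 CPM, above the 18.7 to 30.5 CPM of the others, against 4123 CPM in endothelial cells. Epithelial (217 CPM), erythroid (2257 CPM), macrophage (10.1 CPM), mast cell (5.59 CPM), glial (4.53 CPM) and neuronal (44.7 CPM) sums lay within the range of the other clusters. Single markers called higher in C3 were Krt8, Krt18 and Wfdc2 of epithelium, Des of muscle, Kdr of endothelium, Kit of mast cells, and Dcx and Isl1 of neurons. The levels of Wfdc2 (33.0 against 20.4 CPM), Krt18 (21.8 against 8.32 CPM) and Des (17.8 against 9.96 CPM) were the highest of the first 6, and Kdr rested on 8 UMIs. Myf5, Csf1r, Mbp, Tpsb2 and Hdc had 0 UMIs in C3. The part of such RNA in the gene differences was not tested.

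C6 and C14 had the profiles most like that of C3. Over 3911 genes with at least 50 CPM in some cluster, log2 levels centred on the mean of the 10 clusters correlated with C3 at r = 0.46 for C6 and 0.15 for C14, and from 0.03 (C4) to -0.65 (C10) for the rest. The centring makes such values negative on average and the points share 1 library, so they are a description. Cell cycle genes stayed in these profiles, and their part in the order of the clusters was not tested.

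Against C6, 706 of 10752 genes (6.57%) were higher in C3 and 573 (5.33%) lower. Lix1 was at 79.6 CPM in C3 and 3.14 CPM in C6, Dkk2, a WNT antagonist, at 53.5 and 4.09 CPM, and Slit2 at 212 and 19.2 CPM. The matrix gene Efemp1, Figf and the BMP pseudoreceptor Bambi were also among the 6 highest, at ratios of 9.66, 8.06 and 7.97. Lower in C3 than in C6 were the retinoic acid enzyme Aldh1a3 (3.73 and 159 CPM), the tendon matrix gene Thbs4 (12.8 and 219 CPM), Pcp4, Pid1, Cplx2 and Ngfr. By list, C3 was above C6 for 8 of 13 oral and dental genes (2 lower, median 1.69) and 13 of 21 WNT genes (1 lower, median 0.86), and below it for 5 of 8 chondrogenesis genes (2 higher, median -1.29) and 6 of 12 FGF genes (2 higher). Tongue genes were split, with 5 of 10 lower and 4 higher. Of 7 osteogenesis genes 3 were higher in C3 than in C6 and 1 lower (median 0.31). Of the cell cycle lists, 3 of 34 S phase genes and 2 of 51 G2 and mitosis genes were lower in C3 than in C6 and none higher.

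Against C14, 920 of 10426 genes (8.82%) were higher in C3 and 814 (7.81%) lower. Alx1 was at 248 CPM in C3 and 11.4 CPM in C14, Alx4 at 50.3 and 3.98 CPM, and Dusp6 at 59.1 and 3.42 CPM. Fndc3c1 (23.2-fold), Col9a1 (11.1-fold) and Figf (10.8-fold) were the others of the 6 highest. The dermal matrix gene Dpt was at 2.13 CPM in C3 and 223 CPM in C14, with Dmrt2, Irx1, Vgll3, Emx2 and Snap25 also low. By list, C3 was above C14 for 12 of 15 distal patterning genes (none lower, median 2.35) and 6 of 11 tongue genes (3 lower, median 2.73), and below it for 16 of 21 matrix genes (1 higher, median -1.34) and 13 of 22 dermal genes (3 higher). Of the cell cycle lists, 8 of 34 S phase genes were higher in C3 than in C14 and 1 lower (median 0.36). Among 50 G2 and mitosis genes 2 were higher and 5 lower (median -0.05). Chondrogenesis had 3 of 7 genes higher and none lower (median 0.82), and osteogenesis 2 of 6 higher and 1 lower (median 0.08). Barx1 was above both neighbours, 5.26-fold over C6 and 5.78-fold over C14.

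The leading genes differed widely in the share of single C3 cells in which they were detected. Each cell was thinned to 2000 UMIs, which 459 of the 472 C3 cells reached, so that depth was equal. Itm2a was then detected in 93.9% of C3 cells against 58.3% of the other mesenchymal cells, and Capn6 in 56.2% against 22.6%. Barx1 was detected in 35.3% of C3 cells (30.9 to 39.9) against 5.42% (4.68 to 6.25) of the others and 20.1% of C4, and in 0 of 206 blood cells, which allows up to 1.77% by the exact binomial bound. Unthinned, at a median of 7815 UMIs, 72.2% of C3 cells had a Barx1 UMI. Slit2 was detected in 32.7% against 6.68%, and Meis2 in 30.9% against 9.71%. The lowest shares of C3 cells were for Rgs2 (10.7%), Rarres2 (11.1%) and Sdpr (12.4%). A larger share of C14 than of C3 cells had Rarres2 (18.8%), Sdpr (18.8%), Creb5 (23.8% against 19.6%) and Jun (28.2% against 27.9%). The share was larger in C6 for Asb4 (27.2% against 25.1%). A thinned C3 cell carried a median of 5 of the 20 leading genes (quartiles 4 and 6), and no other cluster had a median above 2. The 20 genes were chosen for high ratios in these same cells, so higher detection in C3 follows from that choice.

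Co-detection was counted for 78 pairs of named genes in the thinned C3 cells. Of these pairs, the interval of the joint share held the product of the separate shares for 74. Slit2 with Flrt2 (8.28% against a product of 5.91%) and Tes with Tbx22 (2.40% against 1.06%) were above it. Figf with Flrt2 (0.654% against 2.28%) and Barx1 with Msx1 (1.31% against 3.00%) were below it. These 4 rest on 38, 11, 3 and 6 cells, and no adjustment for 78 pairs was made. In unthinned C3 cells, which differ in depth, more pairs departed. Figf was below the product with Rarres2 (5.30% against 8.67%), Tbx22 (1.27% against 3.82%), Lgr5 (1.27% against 4.20%) and Msx1 (1.48% against 4.96%). Figf with Flrt2 stayed below it (5.30% against 11.5%), and the interval of Barx1 with Msx1 held it (11.02% against 14.08%). Nefl with Rarres2 (14.8% against 10.8%) and Slit2 with Tes (36.7% against 31.6%) were among those above it. The part of depth was not tested.

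**Figure D4:**
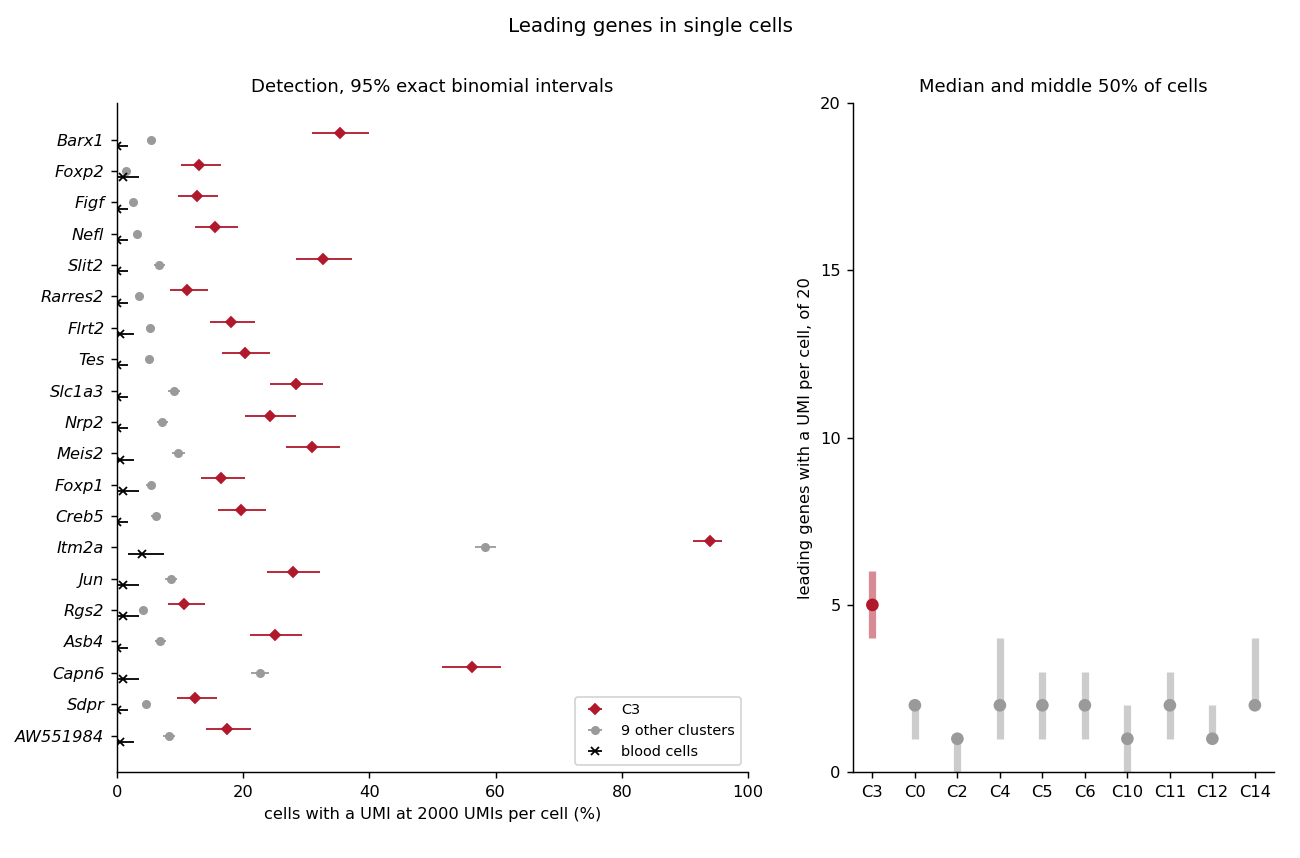
Left, the share of cells with a UMI of each leading gene after thinning to 2000 UMIs per cell, in C3, the 9 other clusters and blood cells, with 95% exact binomial intervals; right, how many of the 20 genes a cell carried (dot, median; bar, quartiles). C3 lies above the pooled others for all 20 genes, and its median of 5 genes stands above the medians of 1 or 2 elsewhere. The 20 genes were chosen for high ratios in these same cells.

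The leading genes were present in C3 cells of both sex markers. Between the 139 C3 cells with a Xist UMI and the 118 with a Y-linked UMI and no Xist, Nefl alone of the 20 passed 1.5-fold (119 against 79.4 CPM, 1.50-fold). Barx1 was at 285 and 260.8 CPM in them. Of the list genes, Meox1, a somite and mesenchyme homeobox gene, differed, at 10.4 CPM (12 UMIs) in the Xist cells and 36.1 CPM (35 UMIs) in the Y-linked cells of C3. Its ratio of C3 over the others was 1.77 in all cells, 0.416 among Xist cells and 2.29 among Y-linked cells. In C6, which carried most Meox1, the levels were 138 and 98.6 CPM. Over all of the 8093 genes measured between these C3 cells, 183 were higher and 231 lower in the Xist cells. The embryos behind the cells are not known, so sex and embryo cannot be told apart.

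The E11.5 library did not enter the choice of C3. Its tissue was digested with less protease and gave 7099 cells and a median of 6231 UMIs, so stage, library and digestion cannot be told apart. Levels are compared within E11.5, except where the level in C3 is set beside them at the end and in the plot. Among 11 mesenchymal clusters of E11.5, over 3184 genes, the C3 profile correlated most with those of E11.5 C0 (r = 0.50) and E11.5 C5 (r = 0.48), with the third at 0.17. E11.5 C5 was itself most like C3 among the E13.5 clusters, whereas E11.5 C0 was most like C6 (0.53), with C3 second.

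The 20 leading genes did not sit together at E11.5. Within that library E11.5 C0 was higher than the other E11.5 clusters for 10 of the 20 and lower for 3, where 6.15% and 3.49% of all genes were. Those 10 were Nefl, Rarres2, Slc1a3, Meis2, Foxp1, Creb5, Itm2a, Jun, Asb4 and Sdpr. E11.5 C5 was higher for 3 (Barx1, Slc1a3, Asb4) and lower for 5, where 1.79% and 6.23% of all genes were, and it held the highest Barx1, at 281 CPM against 137 CPM in E11.5 C0. E11.5 C4 was higher for 7 and lower for 3, where 4.61% and 2.54% of all genes were. E11.5 C10 was higher for 6 and lower for 5, where 3.19% and 3.2% of all genes were. E11.5 C2 was higher for 1 and lower for 10, where 1.5% and 7.66% of all genes were. In E11.5 C1, C7, C8 and C16, 14, 10, 15 and 12 were lower, where 5.75%, 4.17%, 6.22% and 4.1% of all genes were. In the same order 2, 4, 0 and 2 were higher, where 3.05%, 3.72%, 3.33% and 2.87% of all genes were. E11.5 C3 was higher for 3 and lower for 8 (2.8% and 4.92% of all genes), and E11.5 C6 for 3 and 5 (5.4% and 5.25%). Each gene's highest E11.5 level was in C0 for 6 genes, C7 for 4, C4 for 3, and C6, C10 or C16 for 2 each, with Barx1 in C5. Slit2, Nefl, Rgs2 and Jun peaked in E11.5 C7 (63.4, 59.3, 46.3 and 113 CPM), where Barx1 was at 156 CPM.

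Of the 11 genes low in C3 that the E11.5 table lists, 7 were lower in E11.5 C0 and 8 in E11.5 C5, and none was higher in either. None was higher in E11.5 C2, C4 or C10 either, where 4, 5 and 5 were lower and 7.66%, 2.54% and 3.2% of all genes were. The 8 of E11.5 C5, of whose cells 68.7% were called G1, included the cell cycle genes Hist1h1b, Hist1h2ap and Mxd3. Msx1 was at 160.0 CPM in E11.5 C0 and 443 CPM in E11.5 C5, where the highest cluster held 1390.2 CPM. Sp9 was at 1.42 and 4.53 CPM in these clusters and 57.8 CPM in the highest.

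Several leading genes were at low levels in the E11.5 mesenchymal clusters. Pooled over these clusters, Figf was at 2.14 CPM, Rarres2 at 4.10 CPM, Sdpr at 7.16 CPM and Slc1a3 at 7.24 CPM, and their highest clusters reached 10.2, 12.8, 28.9 and 21.8 CPM. Barx1, Asb4 and AW551984 were the 3 of the 20 with an E11.5 cluster above the level of C3. The other 17 were higher in C3 than in any E11.5 cluster, a comparison across libraries that carries the limits given above.

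**Figure D5:**
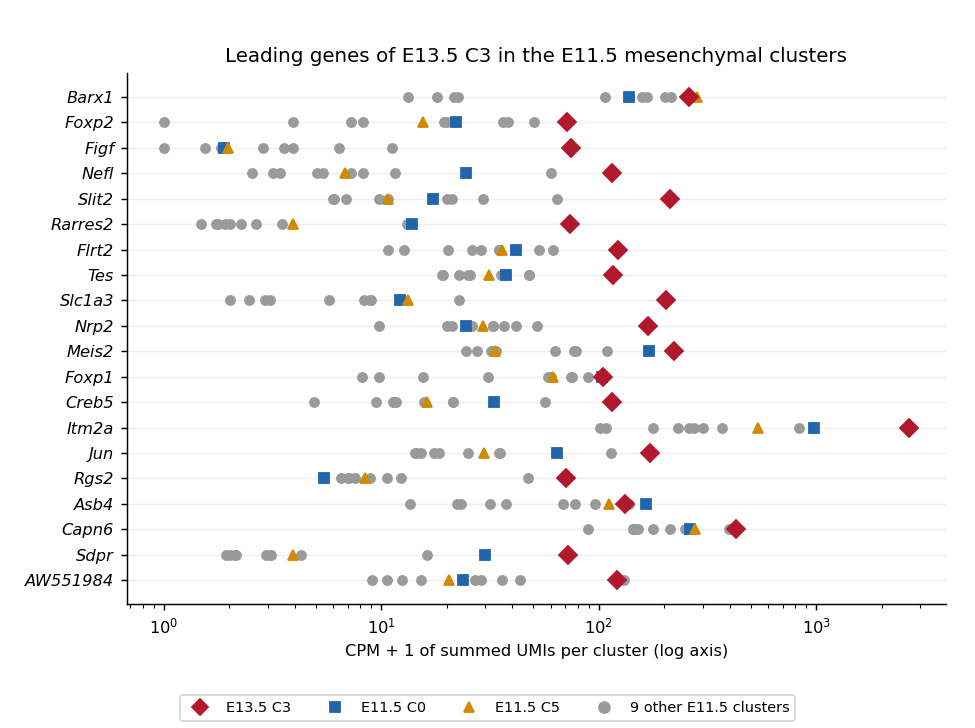
CPM plus 1 (log axis) of the 20 leading genes in each of 11 E11.5 mesenchymal clusters, with E11.5 C0 and C5 marked, and in C3 at E13.5 (diamonds). Barx1 is highest in E11.5 C5, above the level of C3, while Figf is at most 10.2 CPM in any E11.5 cluster and 73.5 CPM in C3.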

How the data were processed

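Single cells of mandibular tissue were measured in 1 E11.5 and 1 E13.5 library. For each library the authors deposited a matrix of raw UMI counts and a table of cells with cluster, lineage name, phase call, cell cycle score and mitochondrial fraction (0 to 1, printed as a percent). Scores were not used. The submitters' processing notes list Cell Ranger 2.0.0, Seurat 2.3.4 and the mm10 build. The sources used here do not give the cell filters, doublet removal or annotation release, and no doublet caller was run. In every cell the counts summed to the deposited total.

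Counts were summed per cluster and divided to CPM. Ratios have exact conditional binomial 95% intervals and shares exact Clopper-Pearson intervals; UMIs mark molecules, and both cover counting error only. With 1 library per stage no test was made. Profiles used log2(CPM + 10). Ratios were tested on simulated data, and the thinning was not. The members and gene lists were chosen with earlier results of these data known. Named genes are the 20 highest and 12 lowest ratios with at least 50 CPM in the higher group and an interval wholly beyond 1.5-fold, leaving out haemoglobin, mitochondrial, ribosomal, predicted and sex-marker genes and genes under 0.2 of their highest level in a non-mesenchymal class; the 6 highest and lowest against each of the 2 most similar clusters; the 2 highest and 2 lowest of each list with at least 10 CPM; and 12 genes named throughout. Other list members given were chosen after their values were seen. E11.5 cluster 17, with high glial markers, was left out. Gene positions are from GENCODE vM21 (GRCm38), the build of mm10. Python 3.11.15, numpy 2.4.6, pandas 2.3.3, scipy 1.17.1 and matplotlib 3.10.9 were used.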

Additional observations from a re-analysis of the deposited data

How the results depend on the processing

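Across 22 alternatives all 20 leading genes stayed called higher. The 12 lower genes stayed called, except Hist1h1b, Hist1h2ap and Mxd3 among G1 cells and Ibsp without C5. Both sets were chosen by a stricter rule from these same cells, so staying called is no independent check. Of 550 list medians recomputed, 517 moved little, 31 moved and 2 changed sign; of 2704 values of single genes, 2329 moved little, 370 moved and 5 changed side. With only cells called G1, the S phase median was 0.15 and the G2 and mitosis median 0.091, and the ratios of Rrm2 and Top2a were 1.11 and 1.56. Without C5, Runx2 had a ratio of 1.48, and 2 lists in place of 6 had a median past 1.5-fold. Among cells with a Xist UMI, the ratios of Meox1 and Hk1 were 0.416 and 0.780. The count of lower genes, 1034, was 603 with cells thinned to 2000 UMIs and 673 among Y-linked cells, where fewer counts were left. Barx1 detection in C3, 35.3% at 2000 UMIs, was 20.1% at 1000 UMIs, 59.3% at 4000 UMIs and 72.2% unthinned, so shares of cells depend on depth. Leaving out C4 with C10 or any single cluster other than C5, and adding C21, were chosen after seeing the data. No paired analysis was possible because each stage has 1 library. For the same reason no library could be left out, and differences between embryos or libraries are unmeasured.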

Other observations

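Below the 50 CPM that the named genes needed, 195 genes with between 10 and 50 CPM in C3 were called higher and were highest in C3 of the 10 clusters. The following were picked, after their values were seen, from the 12 with the highest ratios. Pcp2, a Purkinje cell protein gene, was at 20.5 CPM in C3 (77 UMIs) against 0.954 CPM in the 9 other clusters pooled, with C4 next at 4.80 CPM. The nuclear receptor gene Nr5a2 was at 11.2 CPM (42 UMIs) against 0.855 CPM. Dcx, the microtubule protein doublecortin of migrating neurons, was at 11.5 CPM against 1.02 CPM, whereas of the other neuronal markers Isl1 was higher in C3 and Tubb3, Stmn2 and Snap25 were lower. Ntrk3, the neurotrophin receptor TrkC, was at 16.0 CPM against 2.57 CPM, and Scube1, a secreted and membrane protein of hedgehog and BMP signalling, was at 32.2 CPM against 4.60 CPM. Mecom, a zinc finger gene of blood stem cells and vessels, was at 22.4 CPM against 3.09 CPM and reached 40.2 CPM in endothelial cells. C4 was the next cluster for Pcp2, Nr5a2, Dcx, Scube1 and Ntrk3, and C5 for Mecom. Cpa6 (33.8 against 4.37 CPM) and Kcnb2 (17.8 against 2.86 CPM) had C14 as the next cluster.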
